A study of Apis mellifera with 24 samples.

Results

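Paternal and maternal gene copies were compared in the brains of 6 honey bee workers of lineage L894, whose mother was Africanized (Afr) and whose father was European (Eur). The genes examined were those listed in both deposited allele tables with at least 40 allele reads over the 6 bees, which gave 3508 of 3524 genes. The 16 genes left out had 21 to 39 reads, and the member with the fewest had 42. The tables call the paternal copy drone and the maternal copy queen. All 6 sisters belonged to block B. The group held 3 reproductive and 3 sterile bees, all raised for about 18 days in queenless colonies, where some workers activate their ovaries. The series holds 24 workers from 4 such families. L882 (Eur x Afr, mother first) is the reciprocal cross of the same block, and L888 (Afr x Eur, block A) is the other family with the same cross direction.

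A drone is haploid, so full sisters receive the same paternal copy of every gene and 1 of the 2 copies that their mother carries. Sisters can therefore differ from each other on the maternal side of a locus but not on the paternal side. Genomic imprinting and the kinship theory named in the series title concern expression that depends on which parent a copy came from, whereas sequence variants near a gene favour a copy wherever it came from. Within L894 the paternal copy was always the European one, so parent and origin cannot be told apart in this family alone.

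Allele reads in the 3508 genes came to 9.31, 7.52 and 6.62 M (mega) reads in the reproductive bees, against 4.67, 6.27 and 3.45 M in the sterile bees, so the sterile bees had fewer allele reads on average. Total expected counts in the expression table ran from 10.7 to 16.7 M per L894 bee, with means of 13.2 M in reproductive and 14.1 M in sterile bees. The allele table and the expression table ranked genes differently. Across the 3508 genes, allele reads and expected counts were related with a Spearman rho of 0.36, and 384 genes were listed at 0 expected counts in all 6 bees. Levels of expression are therefore not compared between genes here. None of the 15314 gene identifiers occurs in the RefSeq gene table used (assembly Amel_HAv3.1), so genes are given by identifier only, no role can be stated for them, and the label of brain could not be checked against markers. Many genes lay close to balance. Among genes with at least 1000 allele reads in a bee, 22.3% to 26.5% had a paternal share within 0.5 point of 50%. The sources used here do not give how a read matching both parental copies was counted. One bee of L888, Sterile 2, stood apart from its sisters. Many counts and shares that rest on L888 are given with and without it, and the others include it.

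More genes of the L894 sisters leaned to the father's copy than to the mother's. In edgeR, with each bee's columns paired, 459 genes had more paternal reads (13.1% of the 3508 tested) and 44 had more maternal reads (1.25%), at a Benjamini-Hochberg adjusted p of 0.05. In the paternal group the share of reads from the father had a median of 62.9% and ran from 50.6% to 99.5%. The maternal group had a median paternal share of 27.9%, with a range from 0.313% to 48.6%, and the median over all 3508 genes was 52.4%. All 6 bees lay above 50% in 439 of the 459 paternal genes, and all 6 lay below 50% in 44 of the 44 maternal genes. Over all genes tested these patterns occurred in 22.1% and 2.45%. The call on the same 6 bees favours such agreement, so the contrast with all genes is no separate support. Several settings moved the counts. Without any 1 bee, 288 to 340 genes passed, and leaving out Reproductive 1 or 2 or Sterile 1, 2 or 3 lowered the count by over 1.5 times, to 304, 303, 288, 305 and 319.

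The balance of the 2 directions depended on the scaling of the columns. Both columns of a bee were given the same library size, which keeps any overall lean, and the median log2 ratio of paternal to maternal reads over genes was then 0.15. When each column was scaled to its own total with TMM factors, that median became -0.08, a shift of -0.23, and 319 genes were higher from the father and 800 from the mother. With DESeq2 size factors the counts were 297 and 851, and with own totals alone 323 and 461. Of the 800 genes higher from the mother with TMM factors, 581 had a paternal share between 49% and 51%. The genes that kept the same direction under all 4 scalings numbered 273 on the paternal side, with shares from 57% to 99.5%, and 44 on the maternal side. The other 186 paternal calls did not pass in that direction under every scaling. Of the 459 paternal calls, 6, 18 and 24 were called maternal with own totals, TMM factors and DESeq2 size factors. These scalings all lowered the median log2 ratio, to -0.005 with own totals and -0.085 with DESeq2 size factors. They therefore favour keeping the 44 maternal calls, and only the paternal side was put to a strict check.

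**Figure D1:**
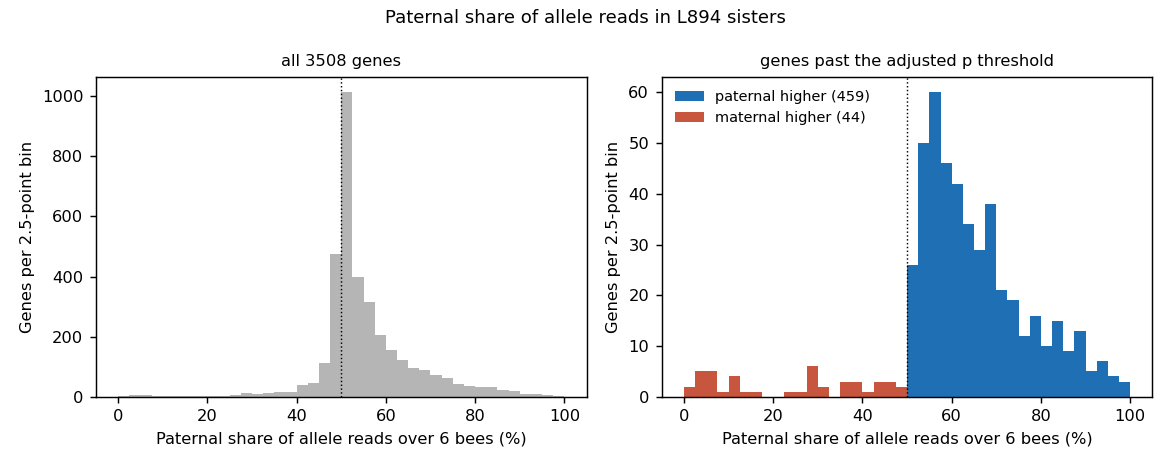
Paternal share of allele reads over the 6 L894 bees (x axis, %) against the number of genes per bin of 2.5 points (y axis), for all 3508 genes on the left and for the genes past the adjusted p threshold on the right. The peak lies at 50%, 806 genes lie at 60% or more and 101 at 40% or less, and the 459 paternal calls outnumber the 44 maternal calls with equal library sizes, which TMM scaling turns to 319 and 800.

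Paternal shares had unequal tails. A total of 806 genes had at least 60% of their reads from the father and 101 had at most 40%, while 971 genes (27.7%) lay between 49% and 51%. Over 90% of the reads came from the father in 28 genes, of which 19 passed the test, and under 10% in 14 genes, of which 13 passed. The test also called small leans, since 182 of the paternal calls had a share under 60% and 9 of the maternal calls had a share over 40%. Requiring 60% on either side left 277 paternal and 35 maternal genes.

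Depth moved with the calls. Genes were split by allele reads into 4 sets of equal size. In the set with the fewest reads (42 to 494 over the 6 bees), 6.61% were called paternal and 0.684% maternal. The set with the most reads (7180 to 1078927) had 20.9% and 1.37%. Shares of 60% or more were found in 32.6% of the genes with the fewest reads and 14% of those with the most. The part of depth in these counts was not tested.

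On the paternal side, GB42540 had the largest ratio. It had 1247, 902 and 681 paternal reads in the reproductive bees and 726, 961 and 727 in the sterile bees. Maternal reads numbered 0, 3 and 9 in the reproductive bees and 8, 7 and 0 in the sterile bees. Every bee was thus almost wholly paternal for this gene, and paternal and maternal counts did not overlap. Its paternal share was 99.4% ± 0.55 (SD, n = 6), with a log2 ratio of 7.60 (SE 0.69, edgeR adjusted p = 0.00323). GB42801 had the smallest p. Its paternal reads were 479, 277 and 639 in the reproductive bees and 923, 1128 and 1020 in the sterile bees, against 50, 37 and 77 and then 119, 141 and 94 maternal reads in the same bees. The sisters were close to each other, at 88.2% to 91.6% paternal, and the log2 ratio was 3.10 (SE 0.09, edgeR adjusted p = 2.13e-04).

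On the maternal side, GB49183 had the largest ratio. It had 0, 0 and 4 paternal reads in the reproductive bees and 0, 0 and 1 in the sterile bees, against 539, 313 and 217 and then 220, 183 and 123 maternal reads. The father's copy was thus absent from the reads of 4 of the 6 bees, where a count of 0 allows a share of up to 0.557%, 0.958%, 1.36% and 1.64% at these depths. The log2 ratio was -8.09 (SE 0.74, edgeR adjusted p = 0.00325). GB49639 had the smallest p on this side and far more reads. Paternal reads were 1427, 608 and 1184 in the reproductive bees and 348, 471 and 268 in the sterile bees, against 64545, 23950 and 30841 and then 20249, 14032 and 10974 maternal reads. Its paternal share ran only from 1.69% to 3.70%, and its log2 ratio was -5.27 (SE 0.19, edgeR adjusted p = 4.86e-04). In the expression table this gene summed to 35 expected counts over the 6 bees, so the tables differ strongly for it. The direction of these 4 genes held under all scalings and without any 1 bee.

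**Figure D2:**
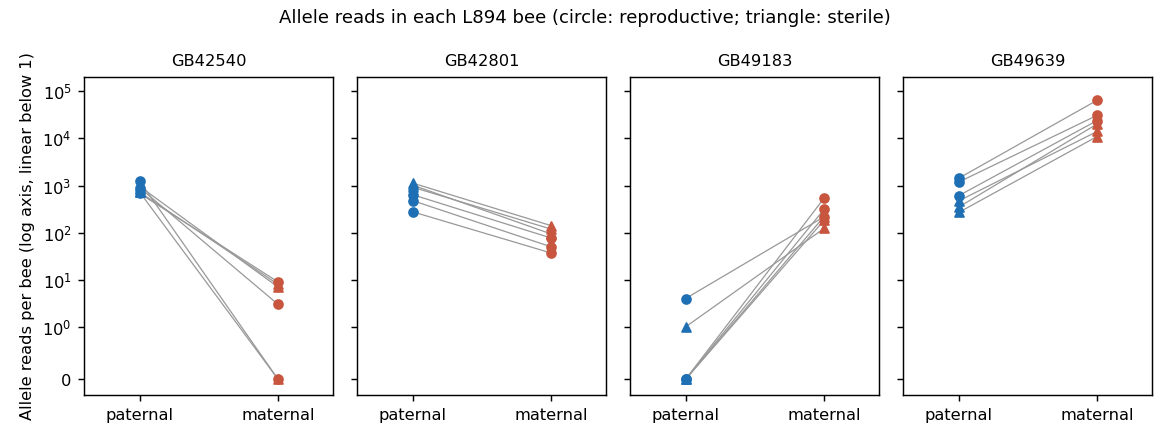
Paternal (left, blue) and maternal (right, red) allele reads of 4 genes on a log axis that is linear below 1. Each line joins the columns of 1 L894 bee (circles reproductive, triangles sterile). All 6 lines fall to the right for GB42540 and GB42801, and all 6 climb to the right for GB49183 and GB49639.

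The sisters did not share 1 pattern at every gene. Of the 2935 genes with at least 20 allele reads in every bee, the paternal share of the highest and the lowest sister differed by a median of 11.6 points. It differed by over 40 points in 343 genes (11.7%). In 261 genes at least 1 sister had 80% or more paternal reads while another lay between 45% and 55%. The mirror pattern, with 1 sister at 20% or less and another between 45% and 55%, occurred in 42 genes. In 19 genes 1 sister had 80% or more and another 20% or less. Of these 343 genes, 8 were among the paternal calls and 0 among the maternal calls, where 13.1% and 1.25% of all genes were called. A large range between bees lowers the chance of a call in this test, so the choice of genes favours this. The 529 genes with a paternal share of at least 60% that did not pass the test had a median range of 44.5 points over the sisters and a median of 685 reads. The 277 that passed had 17.8 points and 1905 reads.

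The labels divide the sisters by reproductive status, and the next comparison asked whether the parental ratio differed with it. Of 3508 genes, 5 (0.143%) had a ratio that differed between the reproductive and the sterile sisters of L894, 3 higher in reproductive (0.0855%) and 2 lower (0.057%). A further 173 genes had an unadjusted p under 0.05 only. With the 5 called genes these make 178 of 3508, near the share that a threshold of 0.05 alone gives. The ratio of GB48697 was higher in reproductive bees, which had 96.1%, 96.0% and 97.0% paternal reads, against 36.6%, 48.3% and 39.3% in sterile bees. The groups were far apart. The log2 difference was 5.18 (SE 0.25, edgeR adjusted p = 0.0300). GB50700 had 76.7%, 77.2% and 80.2% in reproductive bees, against 55.1%, 55.2% and 56.3% in sterile bees (log2 difference 1.51, SE 0.09, adjusted p = 0.0356). GB46614, named after its values were seen, had 94.1%, 94.5% and 96.2% in reproductive bees, against 41.4%, 54.9% and 47.2% in sterile ones (log2 difference 4.33, SE 0.29, adjusted p = 0.0356). In each of these genes the sterile sisters were the ones nearer to balance.

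The other direction had the reproductive sisters nearer to balance. GB54294 had 46.1%, 47.9% and 55.5% paternal reads in reproductive bees, against 95.9%, 93.9% and 93.3% in sterile bees, and GB46612 had 58.1%, 59.1% and 56.4% against 85.8%, 88.7% and 90.6%. Their log2 differences were -4.10 (SE 0.28, adjusted p = 0.0356) and -2.46 (SE 0.18, adjusted p = 0.0411). All 5 genes had 6 bees whose statuses did not overlap, which the call on the same bees favours. How many of all genes tested had no overlap was not counted. With L888 Sterile 2 included, none of the 5 had its statuses apart in the L894 direction in L882 or L888. GB50700 had 73.1%, 74.3% and 54.9% in reproductive L888 bees, against 53.5%, 73.0% and 52.4% in sterile ones, where 73.0% is Sterile 2. Without that bee GB50700 was apart in that direction in L888. None of the 5 kept its call with each bee left out in turn, although the log2 differences stayed close, at 5.04 to 5.39 for GB48697, 1.42 to 1.57 for GB50700, 4.14 to 4.53 for GB46614, -4.27 to -3.87 for GB54294 and -2.64 to -2.32 for GB46612. The count was then 0 without Reproductive 1 and without Sterile 3, 1 without Reproductive 3 and without Sterile 1, 2 without Sterile 2 and 3 without Reproductive 2. Where it was 0, an unadjusted p under 0.05 was reached by 177 and 180 of 3508 genes, again near the share that this threshold alone gives. DESeq2 called 42 genes and limma 5. Each status holds 3 sisters of 1 family, who can differ in the maternal copy they received. The part of that in these splits was not tested.

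**Figure D3:**
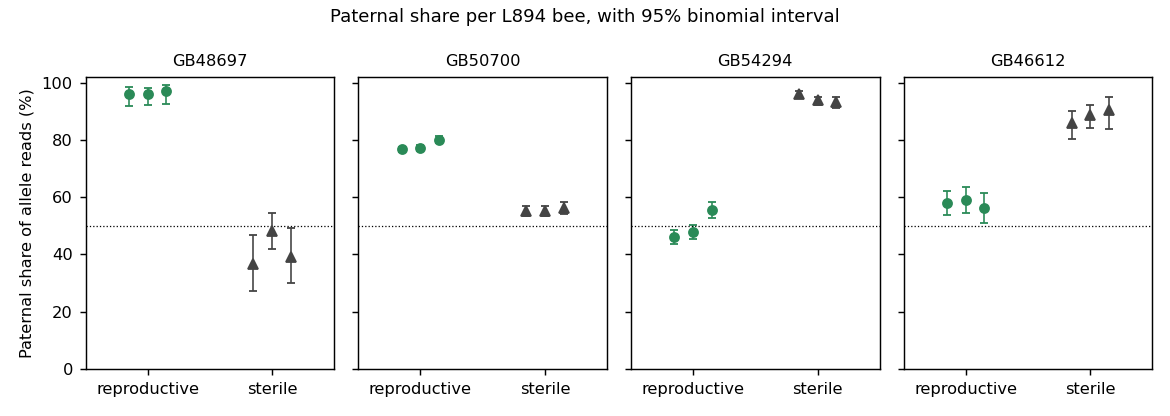
Paternal share of allele reads (y axis, %) of 4 genes in the 3 reproductive (left, green circles) and 3 sterile (right, grey triangles) L894 bees, with the exact 95% binomial interval of each bee, which covers counting error only. GB48697 and GB50700 are higher in the reproductive bees, and GB54294 and GB46612 are lower. None of the 4 overlaps, which their choice by the status test on these bees favours.

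Fewer genes passed within a status. The 3 reproductive bees alone gave 22 genes in edgeR and 28 in limma, and the 3 sterile bees alone gave 0 in edgeR (609 at an unadjusted p under 0.05) and 51 in limma. The sizes of the leans are given as a description. The 459 paternal genes had a median share of 62.8% in reproductive and 62.4% in sterile bees, and the 44 maternal genes had 27.1% and 24.8%. In 459 of 459 and 44 of 44 genes the summed shares of both statuses lay on the side of the call, which the call over the same bees favours.

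Bee by bee, the lean to the father was small and even. The median paternal share over genes was 51.8%, 51.3% and 51.5% in the reproductive bees and 51.7%, 51.6% and 51.4% in the sterile bees. All 6 were above 50%, and the statuses overlapped. The mean was 51.5% ± 0.17 (SD, n = 6). In the exact two-sided sign-flip permutation test p was 0.0313, the smallest that 6 bees allow, and 0.0625 after adjustment over 8 tests on shares per bee. Of all allele reads, 52.6%, 53.3% and 53.2% were paternal in the reproductive bees, against 52.05%, 52.8% and 52.1% in the sterile bees. The means were 53.1% ± 0.38 and 52.3% ± 0.40 (SD, n = 3 each), a difference of 0.759 points (exact two-sided permutation p = 0.2, adjusted p = 0.32, where 3 against 3 cannot go below 0.1).

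The median share of L894 exceeded that of the reciprocal family. It was 51.5% ± 0.17 in L894 and 50.4% ± 0.15 in L882 (SD, n = 6 each), a difference of 1.11 points, with all L894 bees above all L882 bees. The exact two-sided permutation p was 0.00216, the smallest for 6 bees against 6, and the adjusted p was 0.0173. The share of all allele reads did not pass, at 52.7% ± 0.54 and 52.5% ± 1.5 (SD, n = 6 each; exact permutation p = 0.842, adjusted p = 0.955). Against L888 the median share differed by -0.195 points (51.7% ± 1.0 in L888, SD, n = 6; exact permutation p = 0.955, adjusted p = 0.955), and by 0.226 points without L888 Sterile 2 (51.3% ± 0.21 in the remaining bees, exact permutation p = 0.0952). The share of all allele reads differed by -1.30 points between L894 and L888 (54.0% ± 1.5 in L888, SD, n = 6; exact permutation p = 0.0238, adjusted p = 0.0625), and by -0.718 points without L888 Sterile 2 (exact permutation p = 0.0476). Each family is 1 mated pair, so these tests cover sisters, not crosses.

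**Figure D4:**
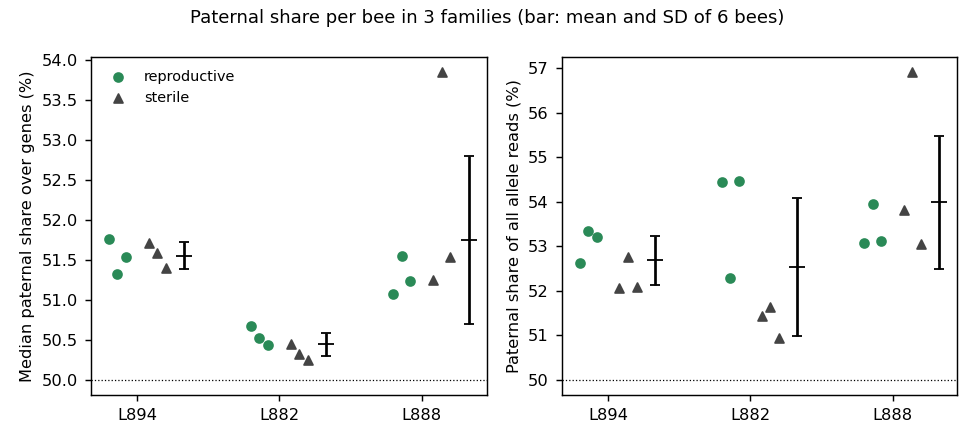
Median paternal share over genes (left panel, %) and paternal share of all allele reads (right panel, %) per bee in L894, L882 and L888, with reproductive bees as green circles, sterile bees as grey triangles, and the mean and SD of 6 bees as a bar. The y axes do not start at 0. The L894 medians, 51.3% to 51.8%, lie above all L882 medians, and L888 Sterile 2 lies apart at 53.8% and 56.9%.

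In the reciprocal family L882 the paternal copy is the African one, so the comparison with it sets leans by parent beside leans by origin. Of 3500 genes with 40 reads in both families, 493 (14.1%) had a parental ratio that differed, 336 higher in L894 (9.60%) and 157 lower (4.49%). With TMM factors the split was 258 and 222. Of the 458 genes called paternal in L894 and measured in both, 242 had a ratio higher than in L882, 6 lower, and 210 did not pass the test of the difference. Genes called on the same L894 bees favour this direction, here and in the like counts below. Their median paternal share was 62.9% in L894 and 51.3% in L882, where all genes tested had 52.4% and 50.8%. In L882 itself 317 genes passed (9.03%): 237 genes (6.75% of those tested there) were called paternal and 80 (2.28%) maternal. The genes called paternal in both families numbered 52, which is 11.4% of the L894 and 21.9% of the L882 calls. Another 27 were paternal in L894 and maternal in L882, so that the European copy was higher in both.

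Of the 44 maternal genes of L894, 11 were also maternal in L882, which is 25% of the L894 and 13.8% of the L882 calls. A further 13 were paternal in L882, so that the African copy was higher in both. With TMM factors the base differs, since L894 then had 319 paternal and 800 maternal calls, and L882 had 213 and 562 of 3510 genes. Of those paternal genes of L894, 35 were paternal and 46 maternal in L882. Of those maternal genes, 278 were maternal and 29 paternal there, and with so many maternal calls in both families some overlap follows from the counts alone. The ratio was lower than in L882 in 31 of the 44. GB49183 and GB49639, the maternal genes described above, were also mostly maternal in the sisters of L882, with paternal shares of 1.65% ± 2.0 and 2.06% ± 0.79 (SD, n = 6 each). The ratios of these genes did not pass the test of a difference between the families (log2 difference -2.31, SE 1.10, adjusted p = 0.197, and 0.44, SE 0.36, adjusted p = 0.49). In L888, with Sterile 2 included, they averaged 20.7% ± 39.3 and 41.8% ± 36.0 (SD, n = 6 each), and neither was called there (adjusted p = 0.250 and 0.840). GB49639 was near balance in 3 of the 6 L888 bees, which had far fewer reads of it, 128 to 152 paternal and 128 to 175 maternal. The others had 298 paternal and 22187 maternal, 209 and 4871, and in Sterile 2 12992 and 144. GB49183 ran from 0.784% to 15.6% in the 5 L888 bees other than Sterile 2.

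The named genes that differed between L894 and L882 leaned to opposite parents or were near balance in 1 family. GB50294 had 41, 26 and 27 paternal reads in reproductive and 14, 19 and 16 in sterile L894 bees, against 0, 1 and 1 and then 2, 2 and 1 maternal reads. Its paternal share was 94.1% ± 4.5 in L894 and 7.67% ± 2.7 in L882 (SD, n = 6 each), with a log2 difference of 7.67 (SE 0.52, adjusted p = 5.01e-06). The European copy thus gave most reads in both families. GB48215 had a paternal share of 97.1% ± 1.0 in L894 and 41.2% ± 4.8 in L882 (log2 difference 5.57, SE 0.24, adjusted p = 2.91e-07). In the other direction, GB48239 was near balance in L894, at 46.0% ± 3.1, and paternal in L882, at 95.8% ± 1.0 (log2 difference -4.74, SE 0.16, adjusted p = 2.70e-08). GB43926 had 0, 1 and 0 paternal reads in reproductive and 0, 2 and 0 in sterile L894 bees, against 20, 31 and 30 and then 28, 49 and 16 maternal reads. In L882 all 189 of its reads were paternal, so the African copy gave nearly all reads in both families (adjusted p = 2.56e-04, with no fold given because maternal reads were at 0 in every L882 bee). The same values came with 0 expected counts for this gene in the expression table in both families. Within L882 alone its lean did not pass (adjusted p = 0.167). In L888, also with an African mother, the paternal share of GB43926 was 60.7% ± 31.2 (SD, n = 6). There it ran from 57.5% to 85.4% in the bees other than Sterile 2, so the European copy gave more reads in those bees.

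The family with the same cross direction, L888, had a minority of its calls in common with L894. L894 had 459 paternal and 44 maternal calls, against 444 (12.7%) and 33 (0.941%) in L888. Without L888 Sterile 2 the L888 counts were 383 and 55, which puts the maternal count above that of L894. Of 3493 genes measured in both, 365 (10.4%) differed in their parental ratio, 178 higher in L894 (5.10%) and 187 lower (5.35%), or 225 and 149 with TMM factors. Without L888 Sterile 2 the count was 428, with 218 higher and 210 lower. The genes called paternal in both numbered 122, which is 26.7% of the L894 and 27.7% of the L888 calls, and 112 without that bee. Paternal genes of L894 had a median share of 62.8% in L894 and 55.8% in L888 (55.5% without L888 Sterile 2), where all genes tested had 52.3% and 52.2%. Of 457 such genes, 118 had a higher ratio in L894 than in L888, 11 a lower one and 328 did not pass the test (144 higher without L888 Sterile 2). On the maternal side 3 genes were called in both families, and 8 without L888 Sterile 2. Across genes the log2 ratios of L894 and L888 were related with a Spearman rho of 0.23 (3493 genes; 0.19 without L888 Sterile 2), and those of L894 and L882 with 0.05 (3500 genes). Genes share depth and reads with their neighbours in a library and are not replicates.

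**Figure D5:**
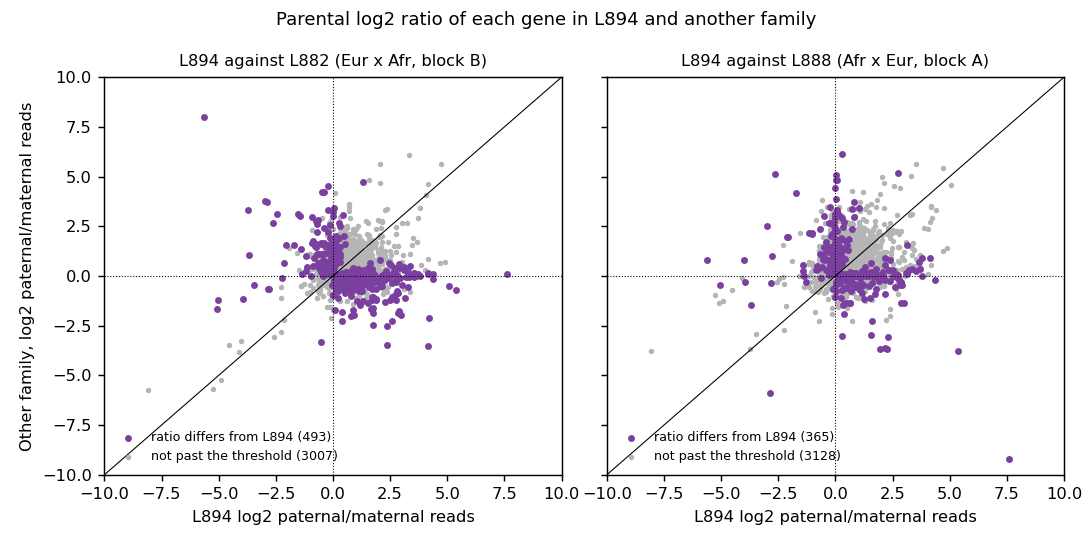
Parental log2 ratio (paternal over maternal reads) per gene in L894 (x axis) and in L882 (left panel, y axis, 3500 genes) or L888 (right panel, y axis, 3493 genes), with the diagonal drawn as a line. Genes whose ratio differs from L894, 493 and 365, are purple, and 343 and 254 of them had a log2 ratio within 0.3 of 0 in 1 of the families. The share of all genes with such a ratio was not counted, so this is not read as particular to the genes that differ.

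Named genes differed between L894 and L888 despite the shared cross direction, but among them only GB42540 was called for opposite parents. GB42540, almost wholly paternal in L894, had a paternal share of 0.170% ± 0.17 in L888 and 51.8% ± 3.0 in L882 (SD, n = 6 each). Its L888 sisters together had 7 paternal and 4589 maternal reads, and the log2 difference between L894 and L888 was 16.8 (SE 0.94, adjusted p = 1.22e-06). GB42801 had 89.5% ± 1.3 in L894 and 53.0% ± 5.9 in L888 (log2 difference 2.97, SE 0.16, adjusted p = 9.90e-07). Lower in L894 was GB52023, with 13.5% ± 15.4 on only 86 reads over its 6 bees, against 96.9% ± 4.2 in L888 (log2 difference -7.74, SE 1.05, adjusted p = 9.81e-04). GB52819 had 45, 19 and 23 paternal reads in reproductive and 4, 29 and 18 in sterile L894 bees, and exactly the same numbers of maternal reads in each bee. In L888 its paternal share was 89.7% ± 1.8 (log2 difference -3.10, SE 0.13, adjusted p = 1.27e-07). The identical L894 counts add no spread between bees to this SE and p, and how they arose was not tested. These 4 differences also passed without L888 Sterile 2.

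Over the 3 families together, 457 paternal genes of L894 were tested in all of them. Of these, 20 were called paternal in L894, L888 and L882. Another 9 were paternal in L894 and L888 and maternal in L882, so that they followed the European copy through 3 families. A further 303 were called paternal in neither of the other families, and 278 of them were not called maternal there either. Among these 457, 74 had a ratio that passed the test of being higher than in L882 and also higher than in L888. Of all genes tested, 9.60% had a higher ratio in L894 than in L882 and 5.10% than in L888. Paternal calls were 6.75% of all genes in L882 and 12.7% in L888. Joint shares over the 3490 genes tested in all 3 families were not counted, and the choice by L894 calls favours a higher L894 ratio. Of the 44 maternal genes, 0 were called maternal in all 3 families, 3 followed the African copy through 3 families and 30 were called maternal in neither of the other families, 17 of them not called paternal there either. Without L888 Sterile 2 the paternal counts were 17 in all 3 families, 12 with the European copy, 310 in neither other family and 86 with a higher ratio than both. The maternal counts were then 4 in all 3 families, 3 with the African copy and 29 in neither other family, so the 0 rests on that bee. Block differs with family between L894 and L888, and block and family cannot be told apart there.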

How the data were processed

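The authors sequenced polyA RNA of single brains with paired ends. HISAT2 and limma stand in the submitters' processing notes with neither version nor role. The sources used here do not give the genome build, annotation or rule for assigning alleles. For every bee and gene, the deposited allele tables list a read count for the drone and for the queen copy, per the file headers. The deposited expression table holds expected counts, used only to describe levels and depth, not in a test. Repeats of identical entries (3 and 1) were dropped, and 0 value columns were left unused.

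Counts were tested with edgeR 4.0.16 in R 4.3.3 (glmQLFit with robust), with a drone and a queen column per bee, bee as a block and equal library sizes for both columns. The columns pair because they come from the same animal. Terms for parent by status or parent by family gave the differences. Genes passed at an adjusted p (Benjamini-Hochberg, all genes tested, two-sided) of 0.05, and adjusted p values are from edgeR unless another tool is named. Standard errors were derived from the quasi-likelihood F. Exact permutation tests used SciPy 1.17.1 and covered 8 comparisons of shares per bee. Intervals are exact binomial at 95% and cover counting error only, since reads are not independent molecules, and the limit for a share at 0 counts is 3 reads of the total.

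Named genes had at least 100 reads: per comparison and direction the called gene with the largest value and the one with the smallest p. Alternatives were DESeq2 1.42.0, limma 3.58.1 on log ratios (prior count 0.5), other scalings, other read minimums, no robust fit, no block, exact tests on summed reads and each bee left out. Gene lists and markers could not be used, as no identifier had a name. Sisters of a family are separate animals of 1 mated pair, and p-values measure the spread between them. Replicate numbers follow accession order and only name bees. The fits were tested on simulated data. The members and lists were chosen with earlier results of these data known.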

Additional observations from a re-analysis of the deposited data

Results flagged for a closer look

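L888 Sterile 2 had a median paternal share of 53.8% and a paternal share of all allele reads of 56.9%, each set apart from its 5 sisters by more than the limit for 6 bees. This library enters every result above that uses L888, unless it is said to be left out, and none from L894 and L882 alone. GB49183 was wholly paternal in it, with 136 paternal and 0 maternal reads, while its sisters had paternal shares of 0.784% to 15.6%. GB49639 had 12992 paternal and 144 maternal reads in it, while its sisters ran from 1.33% to 50% paternal. Among 20 sets of 6 bees examined, these were the 2 with a bee apart, and chance alone marks about 1 set in 20. No L894 bee was set apart in any of them.

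The parental ratio differed between L894 and L882 in 493 genes, between L894 and L888 in 365 genes, and between reproductive and sterile L894 bees in 5 genes, each by a test of the difference itself.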

How the results depend on the processing

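The parental comparison in L894 called 503 genes. It called 818 with DESeq2, 268 with no replicate block, 1966 with exact binomial tests on summed reads, 22 in the reproductive bees alone, 0 in the sterile bees alone, 312 with a share of at least 60% or at most 40%, and 317 in the same direction under all 4 scalings. Own totals, TMM factors and DESeq2 size factors gave 784, 1119 and 1148. Without 1 bee it called 288 to 340. The status difference called 5 genes, 42 with DESeq2, 8 with TMM factors, 1034 with Fisher's exact test on summed reads, which leaves out the spread between bees, and 0 to 3 without 1 bee. The difference from L882 called 493 genes, and 402 to 472 without 1 bee. The difference from L888 called 365, 622 with DESeq2, and 283 to 428 without 1 bee. Other minimums and no robust fit stayed within 1.5 times for each comparison, and the minimums of 20 and 1 reads tested nearly the same genes. Without 1 bee the mean median share was 51.5% to 51.6% and the mean share of all reads 52.5% to 52.8%, with an exact p of 0.0625, the smallest that 5 bees allow. No named gene changed direction in any setting. Fewer bees lower the counts by construction, and the cause of the other changes was not tested. Own totals, the set common to 4 scalings, limma within a status and the values without L888 Sterile 2 were added after the data were seen.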
